A study of Mus musculus with 7 samples.

Results

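*Kcnv2*, *Atp1b2*, *Atp2b1*, *Ano2* and *Slc24a2* were examined as a set of 5 genes for ion channels, pumps and an exchanger of photoreceptors, most of them known from the inner segment or the synaptic terminal. They were chosen by symbol and found by the gene identifier that a GRCm38 annotation pairs with each symbol, among 52550 genes in the count table. All 5 were among the 20128 genes that passed the expression filter. The choice used no measured value of this comparison, but it was made with earlier results of these data known. Counts of transcripts in whole retina do not show in which compartment of the cell a protein sits.

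Total RNA-seq was performed on retina of 12.5-week-old mice on a C57BL/6J background, 4 WT mice and 3 mice homozygous for the SCA7 140Q/140Q knock-in, hereafter WT and SCA7. The knock-in carries a CAG repeat expansion in *Atxn7*, so that both alleles encode a long polyglutamine tract in ataxin-7 wherever the gene is expressed, in all retinal cells and outside the retina. Both retinas of a mouse (2 per library) were pooled, and each mouse is 1 replicate. Males and females were used in the study, and the sex of each mouse was not used here. The comparison of both genotypes asked whether genes that serve photoreceptor ion handling differ in level in a retina affected by SCA7. In this disease photoreceptors degenerate. For heterozygous mice of this knock-in, the study describes shortened outer segments without overt loss of cells.

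In darkness a photoreceptor carries a circulating current. Cations enter the outer segment through cyclic nucleotide-gated channels, and potassium leaves from the inner segment, in part through channels that contain the silent subunit Kv8.2 (*Kcnv2*). The sodium pump of the inner segment restores the sodium and potassium gradients, and in photoreceptors it contains the β2 subunit (*Atp1b2*), which Müller glia also express. Calcium leaves the outer segment through exchangers driven by sodium and potassium. Among them are NCKX1 (*Slc24a1*) in rods and NCKX2 (*Slc24a2*) in cones and in several kinds of neuron. Calcium leaves the cell body and terminal through plasma membrane calcium pumps such as PMCA1 (*Atp2b1*). In the terminal, calcium entering through the Cav1.4 channel (*Cacna1f*) opens the chloride channel anoctamin 2 (*Ano2*). Mutations of *KCNV2* cause a cone dystrophy with supernormal rod responses in humans. *Kcnv2*, *Ano2* and *Slc24a2* are also on a list of photoreceptor specific genes that the study compiled from other data.

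The upstream sequences of *Ano2* and *Slc24a2*, a gene that fell and the gene that rose, are shown here because the photoreceptor transcription factors CRX and NRL act at promoters of this kind. The sequences are the 250 bases before the first start site of each gene in RefSeq, of build GRCm38.p6. *Ano2* lies on the plus strand, with these bases at chr6:125690169-125690418, and *Slc24a2* on the minus strand, with these bases at chr4:87230541-87230790. Capitals mark TAATCC, the letters of the CRX motif searched on both strands.
*Ano2*: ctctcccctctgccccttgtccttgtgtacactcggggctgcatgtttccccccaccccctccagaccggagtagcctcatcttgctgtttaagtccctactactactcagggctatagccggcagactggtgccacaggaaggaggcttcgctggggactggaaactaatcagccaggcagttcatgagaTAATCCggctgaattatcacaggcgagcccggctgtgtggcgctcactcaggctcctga
*Slc24a2*: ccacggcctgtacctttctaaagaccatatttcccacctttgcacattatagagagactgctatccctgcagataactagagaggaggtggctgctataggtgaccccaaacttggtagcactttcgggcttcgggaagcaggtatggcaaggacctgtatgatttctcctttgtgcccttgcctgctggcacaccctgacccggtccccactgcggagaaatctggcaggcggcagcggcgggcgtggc

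RefSeq promoter windows, of 250 bases before and 50 after a start site, were matched for 3 of the 5 genes, and these had 7 windows in all. TAATCC occurred in 1 of them, the first window of *Ano2*, at position -59 on the strand of the gene. It occurred in 7.06% of all 32851 windows of the same length. TGCTGA, the letters searched for NRL on both strands, occurred in the third window of *Ano2* at position -112 and in 19.5% of all windows. The matches lie in different windows and do not overlap. A match of these letters is a description of the sequence, and a link to the levels that follow was not tested.

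The libraries held between 56497675 and 96635832 counts on genes, with a median of 67140118. The 5 genes had between 3221 and 55437 counts in any library, so counting error was at most 1.76% of a value and the spread between mice exceeded it in both groups for every gene of the set except *Atp1b2* in SCA7. Levels are given in CPM, the counts of a gene relative to a fixed total per library. Libraries were scaled by TMM (factors of 0.8905 to 0.9742 for WT libraries, 1.065 to 1.09 for SCA7). Genotypes were compared by the quasi-likelihood test of edgeR. A gene rose or fell at an adjusted p under 0.05, and was called downregulated when its FC (SCA7/WT) was also under 0.7 and upregulated when it was above 1.3, the thresholds of the study. Among WT libraries, replicates 3 and 4 differed most (chi-square per degree of freedom over genes 100.8, against 18.33 to 57.17 for the other pairs). The retina was checked by marker lists. No marker of any of the 9 lists, for photoreceptors, the other neurons of the retina, glia and the pigment epithelium, was at 0 in every library. The 8 rod markers summed to 26150 to 27390 CPM per WT library and 9089 to 11510 CPM per SCA7 library, and the 8 cone markers to 1415 to 1694 CPM and 244 to 270.5 CPM. All 8 genes of each list were downregulated (median log2 fold changes -1.09 for rods and -1.96 for cones). All 8 microglia markers were upregulated (median 0.79), with sums from 72.65 to 90.13 CPM in WT and from 144.7 to 160.8 CPM in SCA7. Of the 8 Müller glia markers, 5 rose and 1 fell (median 0.32), while their sums overlapped, at 4240 to 4973 CPM per WT library and 4254 to 4475 CPM per SCA7 library. Of the 8 bipolar markers 6 fell (median -0.30), where library totals in place of TMM gave 3 lower and 1 higher (median -0.11). Of the amacrine markers 3 of 8 fell (median -0.24), of the horizontal cell markers 2 of 6 (-0.21) and of the ganglion cell markers 1 of 8 (-0.11), and with library totals 1, 2 and 0 of them passed as lower and 1, 1 and 0 as higher. Markers of the retinal pigment epithelium, a tissue attached to the retina, summed to 123.9 to 245.7 CPM per WT library and 29.98 to 68.52 CPM per SCA7 library, with 4 of 8 downregulated. In whole retina, fewer cells of a type and less RNA per cell cannot be told apart. The part of these markers in the values of the 5 genes was not tested.

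The 5 genes did not move together. *Kcnv2* and *Ano2* fell in SCA7 retina, *Slc24a2* rose, and *Atp1b2* and *Atp2b1* did not pass the test. At an adjusted p under 0.05 from the edgeR quasi-likelihood test, 2 of 5 were lower and 1 of 5 was higher, where 14.2% of all genes tested were lower and 14.2% were higher. With the FC thresholds, 1 of 5 was downregulated and 0 of 5 were upregulated, against 7.91% and 7.47% of all genes tested. The median log2 fold change of the 5 was 0.10, and that of all genes tested was -0.02. The log2 fold changes of the rod markers ran from -1.76 to -0.67. That of *Kcnv2* was inside this range and those of the other 4 genes were above it. The rod markers were chosen with earlier results known and do not stand for all photoreceptor genes. Some photoreceptor specific genes that the study tabulated fell less, and *Heg1* rose.

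**Figure D1:**
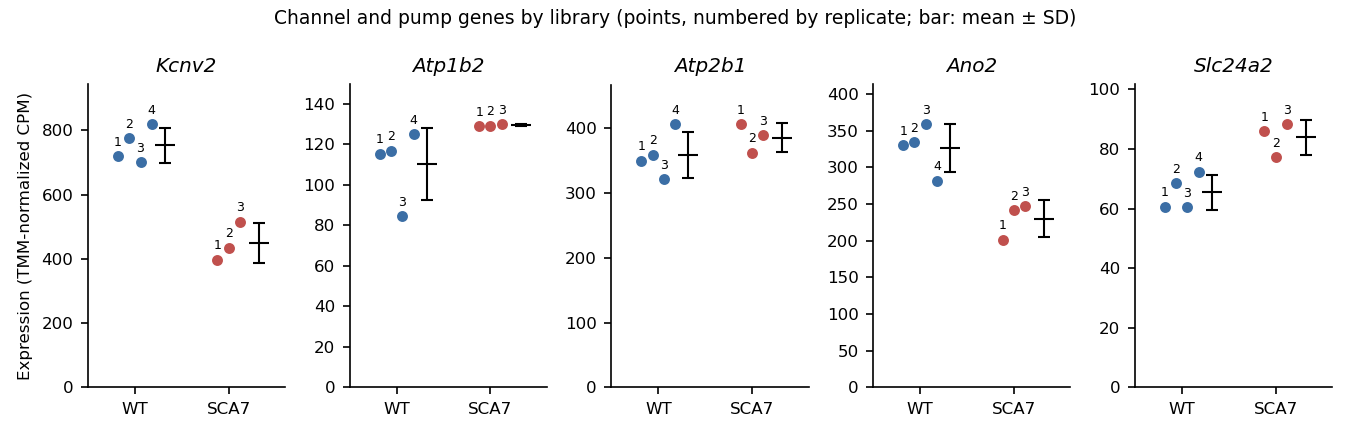
Expression in TMM-normalized CPM (vertical axis, from 0) of the 5 genes in each WT (n = 4) and SCA7 (n = 3) library, with points numbered by replicate and bars for mean ± SD. *Kcnv2* and *Ano2* are lower in every SCA7 library than in every WT library, *Slc24a2* and *Atp1b2* are higher, and the groups overlap for *Atp2b1*.

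*Kcnv2* encodes the silent potassium channel subunit Kv8.2, which forms no channel alone. The gene (ENSMUSG00000047298) lies on the plus strand of chromosome 19 from 27322588 to 27337179 of mm10 and has 2 exons and 1 annotated transcript. In WT its level was 720.2, 775.1, 701.1 and 820.1 CPM, and in SCA7 it was 397.2, 434.7 and 516.5 CPM. All SCA7 libraries were below all WT libraries, with replicate 3 the highest of the SCA7 libraries. The mean was 754 ± 54.0 CPM in WT (SD, n = 4) and 450 ± 61.0 CPM in SCA7 (SD, n = 3). The level fell by 40.4%, a log2 fold change of -0.75 (SE 0.09, 95% interval -0.95 to -0.54) with an adjusted p of 0.000122 from the edgeR quasi-likelihood test. *Kcnv2* was the only one of the 5 genes that was downregulated, at an FC of 0.596.

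*Ano2* encodes a chloride channel opened by calcium in the photoreceptor terminal. The gene (ENSMUSG00000038115) spans chromosome 6 from 125690419 to 126040126 on the plus strand. The snRNA gene *Gm24947* and the processed pseudogene *Gm16303* lie inside it on the same strand and share 0 exon bases with it. Its level was 330.3, 334.1, 358.9 and 281.7 CPM in WT and 201.2, 241.6 and 247.1 CPM in SCA7. The groups did not overlap, although WT replicate 4 came close to the upper SCA7 libraries. The mean was 326 ± 32.3 CPM in WT (SD, n = 4) and 230.0 ± 25.1 CPM in SCA7 (SD, n = 3). The log2 fold change was -0.50 (SE 0.09, 95% interval -0.71 to -0.30) with an adjusted p of 0.00192 from the edgeR test. The FC of 0.705 lay just outside the threshold for downregulated genes, and *Ano2* was inside it without WT replicate 4, without SCA7 replicate 2 or without SCA7 replicate 3, which gives 2 downregulated genes of 5.

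*Slc24a2* encodes NCKX2, an exchanger that trades sodium for calcium and potassium. The gene (ENSMUSG00000037996) spans chromosome 4 from 86983124 to 87230477 on the minus strand. Its level was 60.64, 68.59, 60.41 and 72.33 CPM in the WT libraries, against 86.03, 77.28 and 88.39 CPM in SCA7. Every SCA7 library was above every WT library. The mean was 65.5 ± 5.94 CPM in WT (SD, n = 4) and 83.9 ± 5.85 CPM in SCA7 (SD, n = 3). The log2 fold change was 0.36 (SE 0.08, 95% interval 0.19 to 0.52) with an adjusted p of 0.00465 from the edgeR test. The FC of 1.28 lay just under the threshold for upregulated genes and passed it without WT replicate 2, without WT replicate 4 or without SCA7 replicate 2.

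*Atp1b2* encodes the β2 subunit that brings the sodium pump to the membrane. The gene (ENSMUSG00000041329) lies on the minus strand of chromosome 11 from 69599736 to 69605942. Its level was 115.4, 116.8, 84.43 and 124.9 CPM in WT and 129.0, 129.2 and 130.0 CPM in SCA7. The SCA7 libraries were nearly equal and all above the WT libraries, among which replicate 3 was low. The coefficient of variation was 16.1% in WT and 0.41% in SCA7. The mean was 110.4 ± 17.8 CPM in WT (SD, n = 4) and 129 ± 0.531 CPM in SCA7 (SD, n = 3). The log2 fold change of 0.23 (SE 0.11, 95% interval -0.01 to 0.47) did not pass the edgeR test (adjusted p = 0.145). Without WT replicate 3 it was 0.12 and did not pass either. Of 15 alternative fits *Atp1b2* passed in 2, with adjusted p between 0.00271 and 0.261 over all of them (edgeR, DESeq2 and limma-voom).

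*Atp2b1* encodes PMCA1, a calcium pump of the plasma membrane. The gene (ENSMUSG00000019943) lies on the plus strand of chromosome 10 from 98914406 to 99026143. In WT its level was 349.9, 359.5, 321.4 and 406.6 CPM, and in SCA7 it was 406.0, 362.2 and 388.9 CPM. The groups overlapped, since WT replicate 4 had the highest level of all libraries. The mean was 359 ± 35.4 CPM in WT (SD, n = 4) and 386 ± 22.1 CPM in SCA7 (SD, n = 3). The log2 fold change was 0.10 (SE 0.08, 95% interval -0.08 to 0.28) and did not pass (adjusted p = 0.386 from the edgeR test). It was 0.05 without WT replicate 3 and 0.17 without WT replicate 4, and passed in neither fit.

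Among WT mice the 5 genes varied with the library. WT replicate 3 was the lowest WT library in *Kcnv2*, *Atp1b2*, *Atp2b1* and *Slc24a2* and the highest in *Ano2*, and WT replicate 4 was the highest in those 4 genes and the lowest in *Ano2*. Between these libraries *Atp1b2* ranged from 84.43 to 124.9 CPM and *Ano2* from 281.7 to 358.9 CPM. Leaving out replicate 3 or 4 ended no call at the p threshold and turned no direction among the 5 genes.

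**Figure D2:**
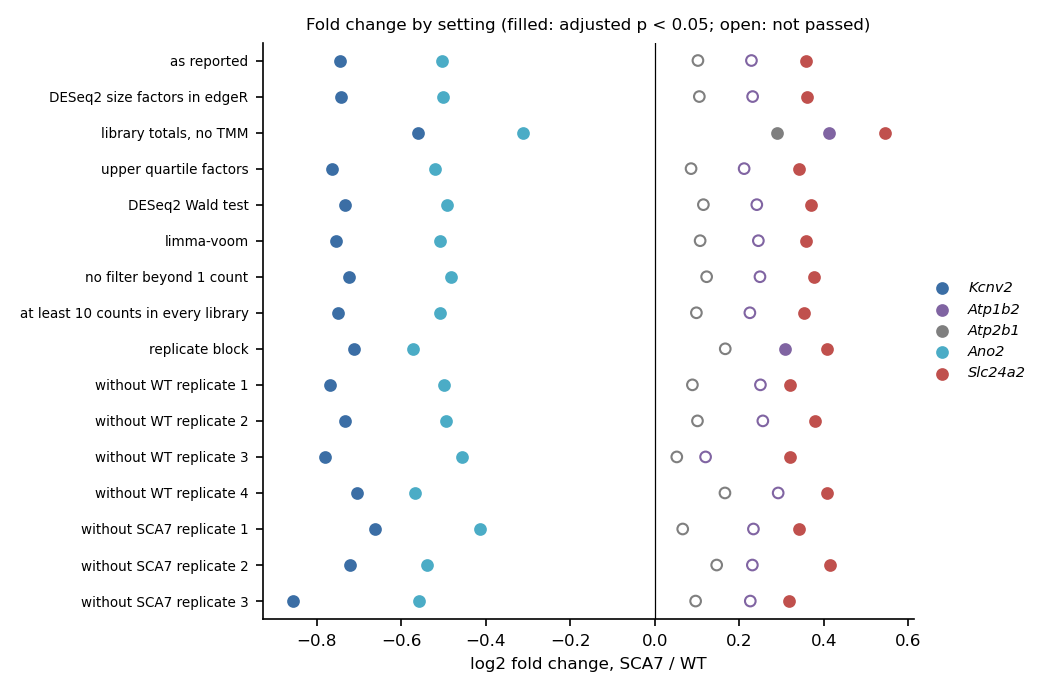
Log2 fold change (SCA7/WT, horizontal axis) of each gene as reported and in 15 other fits, with filled points where the adjusted p was under 0.05. *Kcnv2*, *Ano2* and *Slc24a2* pass in all 15, and *Atp1b2* and *Atp2b1* pass in 2 and 1 of 15.

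The scale by which libraries are compared moved all genes. With library totals in place of TMM factors, the median log2 fold change of all genes tested shifted by 0.19, and the calls were 978 downregulated and 3681 upregulated genes (79.0% upregulated), against 1592 and 1504 with TMM (48.6% upregulated). On that scale the log2 fold change was -0.56 for *Kcnv2* and -0.31 for *Ano2*, which still passed as lower, 0.54 for *Slc24a2*, 0.41 for *Atp1b2* and 0.29 for *Atp2b1*, which all passed as higher. Directions of the 5 genes were the same on both scales.

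Levels were compared between genes only per length, as reads per kilobase (RPK) with the median transcript length of each gene. In WT, *Atp2b1* was at 16990 ± 1690 RPK (SD, n = 4), *Kcnv2* at 10190 ± 747 RPK, *Atp1b2* at 7676 ± 1249 RPK, *Ano2* at 7656 ± 753 RPK and *Slc24a2* at 2083 ± 193 RPK. *Atp1b2* and *Ano2* did not differ beyond their spread. These levels stood at the 97.2, 93.9, 91.3, 91.3 and 69.2 percentiles of the protein-coding genes tested. In SCA7 the means were 18400 RPK for *Atp2b1*, 9076 RPK for *Atp1b2*, 6130 RPK for *Kcnv2*, 5444 RPK for *Ano2* and 2692 RPK for *Slc24a2*, so *Kcnv2* stood below *Atp1b2*. The order depended on the length used, because the annotated transcripts of *Atp2b1* have a median of 1.46 kb while all its exons together cover 15.218 kb. With the union of exons as length, WT levels were 10190 ± 747 RPK for *Kcnv2*, 4182 ± 412 RPK for *Ano2*, 1866 ± 304 RPK for *Atp1b2*, 1630 ± 162 RPK for *Atp2b1* and 370.1 ± 34.2 RPK for *Slc24a2*. Then *Kcnv2* was the highest, and *Atp1b2* and *Atp2b1* did not differ beyond their spread. *Slc24a2* was the lowest by both lengths.

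**Figure D3:**
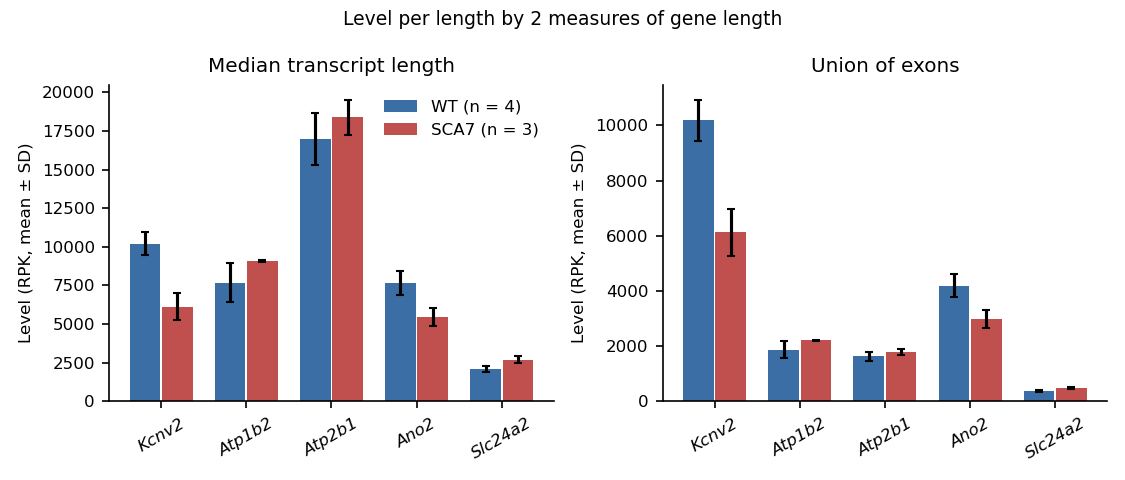
Level per length in RPK (bars from 0, mean ± SD) of the 5 genes in WT (n = 4) and SCA7 (n = 3), with the median transcript length on the left and the union of exons on the right. *Atp2b1* is the highest in WT by the first length (16990 RPK) and *Kcnv2* by the second (10190 RPK).

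The families to which the 5 genes belong were described with 6 lists that hold 54 further genes, of which 51 passed the expression filter. Of these, 13 passed the test as lower and 9 as higher, with 9 downregulated and 7 upregulated. Over all genes tested the shares were 14.2% lower, 14.2% higher, 7.91% downregulated and 7.47% upregulated. The channels of the photoreceptor membrane were the list with the lowest median. The lists were drawn up with earlier results of these data known, so their counts are descriptions. The highest RPK of a list is by median transcript length, and such a rank can depend on the length used.

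Among 10 further partner and silent subunits of voltage-gated potassium channels, 0 fell and 2 rose, with a median log2 fold change of 0.02. With library totals 5 passed as higher (median 0.20), with upper quartile factors the median was -0.00142, and with at least 10 counts in every library 9 genes were tested, of which 1 passed as lower and 1 as higher (median -0.07). *Kcng4*, which encodes the silent subunit Kv6.4 and had the highest RPK of the list in WT, rose from 26.1 to 49.1 CPM, with 25.01 to 27.38 CPM in WT and 44.04 to 54.75 CPM in SCA7. Its log2 fold change was 0.91 (SE 0.07, adjusted p = 3.77e-06, edgeR). The other gene that rose was *Kcng1*, named after its values were seen, and 8 of the 10 did not pass.

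Of 8 photoreceptor membrane channel genes, 7 fell, 5 of them downregulated, and the median log2 fold change was -0.63. *Cnga1* and *Cnga3* are also in the rod and cone marker lists. The rod cyclic nucleotide-gated channel genes *Cnga1* (975.1 to 492 CPM, log2 fold change -0.99) and *Cngb1* (955 to 618 CPM, -0.63) fell, as did their cone counterparts *Cnga3* (16.4 to 8.09 CPM, -1.02) and *Cngb3* (32.6 to 18.3 CPM, -0.83). *Cacna1f*, the pore of the terminal calcium channel, fell from 173 to 112 CPM (log2 fold change -0.62, adjusted p = 0.000744, edgeR). *Cacna2d4*, which encodes an auxiliary subunit of the same channel and had the highest RPK of the list in WT, was at 486 ± 55.6 CPM in WT (SD, n = 4) and 457 ± 25.2 CPM in SCA7 (SD, n = 3), and its log2 fold change of -0.09 did not pass (adjusted p = 0.501, edgeR). *Cacna2d4* passed as lower without WT replicate 3 (log2 fold change -0.17) and turned positive with library totals. With library totals 5 of the 8 genes passed as lower (median -0.44).

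Of 8 subunit and regulator genes of the sodium pump tested, 3 rose and 0 fell, 2 of them upregulated, with a median log2 fold change of 0.15. With library totals 5 passed as higher (median 0.34). *Atp1b1*, which encodes the β1 subunit and had the highest RPK of the list in WT, had means of 262 CPM (WT) and 238 CPM (SCA7) (log2 fold change -0.14, adjusted p = 0.178, edgeR), and turned positive with library totals. *Fxyd5*, a small regulator of the pump, rose from 2.53 to 3.45 CPM (log2 fold change 0.45, adjusted p = 0.0235, edgeR), and did not pass without SCA7 replicate 1 or without SCA7 replicate 2. Neither β subunit gene described here, *Atp1b1* or *Atp1b2*, passed the test.

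Of 9 calcium pump and pump subunit genes tested, 1 fell and 0 rose, with a median log2 fold change of 0.01. With library totals 1 passed as lower and 2 as higher (median 0.20), and with upper quartile factors 2 passed as lower and 0 as higher (median -0.00294). *Atp2b2*, which encodes PMCA2, had means of 90.5 CPM (WT) and 93.6 CPM (SCA7) (log2 fold change 0.05, adjusted p = 0.72, edgeR). *Bsg*, which encodes basigin, a glycoprotein that also associates with plasma membrane calcium pumps, had means of 748 CPM (WT) and 769 CPM (SCA7) (0.04, adjusted p = 0.715, edgeR). *Bsg* passed as higher with library totals, as *Atp2b1* did, and *Atp2b2* was at -0.00909 without WT replicate 3.

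Of 8 anoctamin genes tested other than *Ano2*, 2 fell and 3 rose, with a median log2 fold change of 0.07. With library totals 1 passed as lower and 4 as higher (median 0.25), and with at least 10 counts in every library 7 were tested, of which 1 passed as lower and 3 as higher (median 0.21). Of those that fell, *Ano7* had 4 to 20 counts in any library and *Ano4* passed in 8 of 15 alternative fits, both named after their values were seen. *Ano1*, which encodes a calcium-activated chloride channel of epithelia and smooth muscle, rose from 2.79 to 4.33 CPM (log2 fold change 0.63, adjusted p = 0.00443, edgeR). *Ano10* rose from 13.4 to 17.8 CPM (0.41, adjusted p = 0.000702). *Ano3*, the list's highest in RPK in WT, had means of 25.6 CPM (WT) and 24.2 CPM (SCA7) (-0.08, adjusted p = 0.534), and turned positive with library totals.

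Of 8 sodium-calcium exchanger genes other than *Slc24a2*, 3 fell and 1 rose, with a median log2 fold change of -0.10 that became 0.09 with library totals. *Slc24a1*, the rod exchanger, fell from 1097 ± 133 CPM in WT (SD, n = 4) to 691 ± 31.2 CPM in SCA7 (SD, n = 3), with a log2 fold change of -0.67 (SE 0.10, adjusted p = 0.000294, edgeR). *Slc24a4*, which encodes NCKX4, fell from 24.7 to 16.1 CPM (-0.62, adjusted p = 0.000571). *Slc8b1*, the mitochondrial exchanger, rose from 7.23 to 9.64 CPM (0.42, adjusted p = 0.00331). *Slc24a2* was thus on the other side of 0 from both other NCKX genes that passed.

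**Figure D4:**
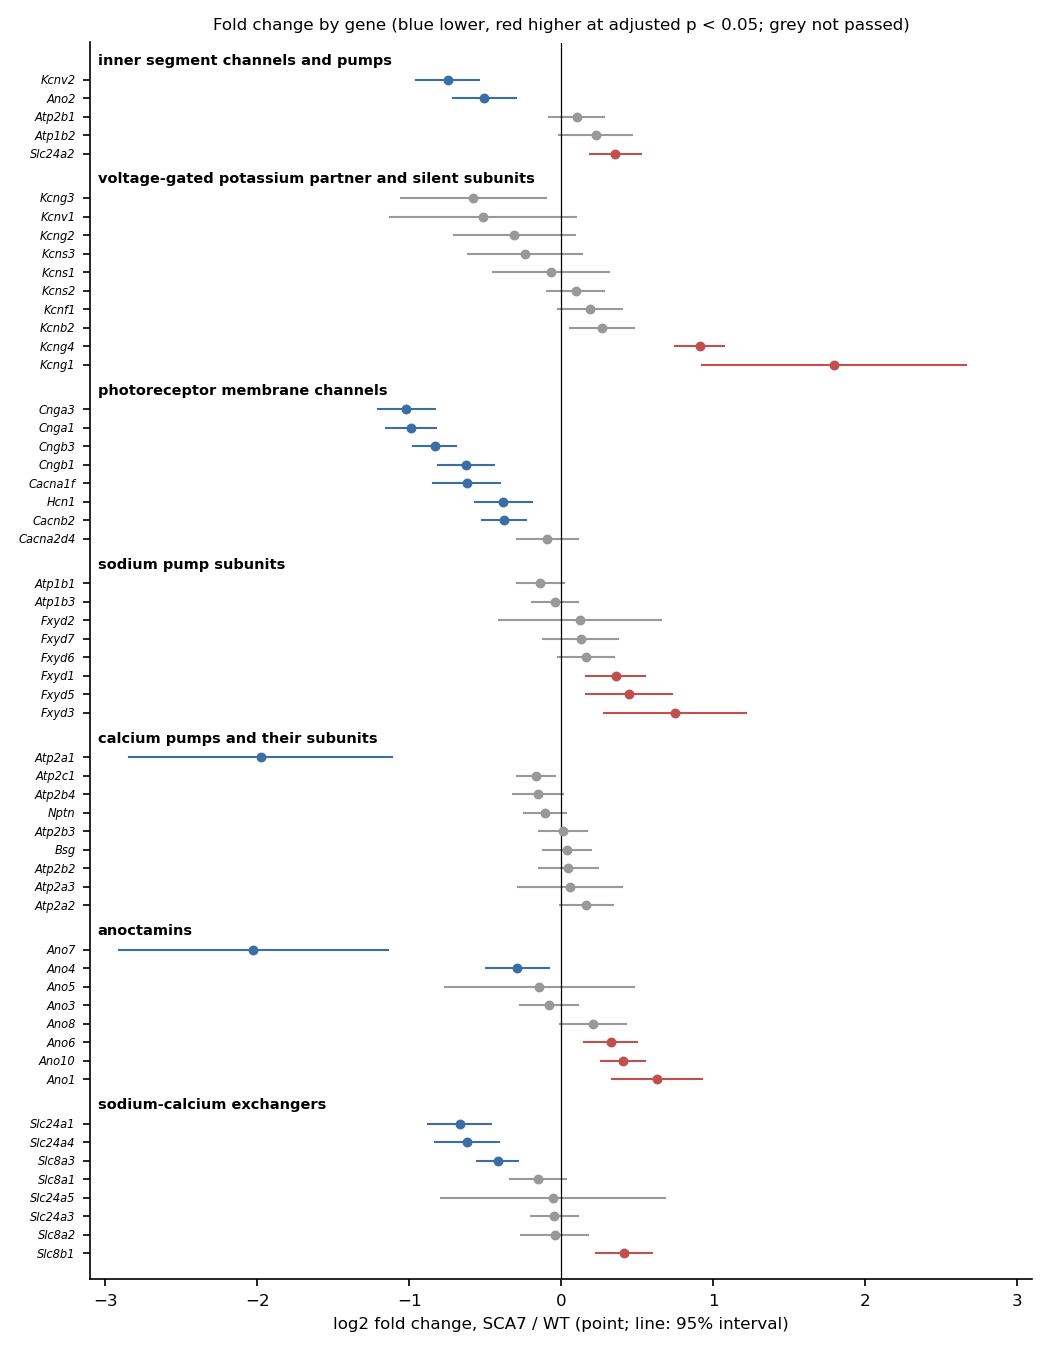
Log2 fold change (SCA7/WT, horizontal axis) with its unadjusted 95% interval for the 5 genes and the 51 family genes tested, in blue where lower and red where higher at an adjusted p under 0.05 and in grey otherwise. Of the 8 photoreceptor membrane channel genes, 7 are blue, and of the 8 sodium pump genes 3 are red.

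Genes with related tasks were set against each other within each library as the ratio of their counts per kb. These ratios do not depend on how libraries were scaled. Their levels depend on the median transcript lengths used, while the log2 differences between genotypes do not. Genotypes were compared over 6 ratios by two-sided exact permutation tests over the 35 assignments of 7 libraries, whose smallest p is 0.0286. None of the 6 passed after Benjamini-Hochberg adjustment, and 4 of them are reported here. A ratio that alone reached the smallest p could not pass this adjustment, however large its difference.

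*Slc24a2* against *Slc24a1* had the largest log2 difference of these ratios. It was 0.135, 0.145, 0.157 and 0.140 in WT and 0.315, 0.261 and 0.300 in SCA7. The ratio was higher in 3 of 3 SCA7 libraries than in any WT library, by 2.02-fold (log2 difference 1.02, and between 0.96 and 1.10 when each library was left out). The exact permutation p of 0.0286 is the smallest these libraries can give, and its adjusted value over the 6 ratios was 0.172.

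The ratios of the pump genes were less separated. *Atp1b2* against *Atp1b1* was 0.309, 0.269, 0.190 and 0.300 in WT and 0.342, 0.353 and 0.328 in SCA7, with all SCA7 libraries above WT (log2 difference 0.38, exact p = 0.0857, adjusted 0.257). It was 0.22 without WT replicate 3, the low library.

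*Atp2b1* against *Atp2b2* was 14.79, 13.0, 14.19 and 13.93 in WT and 14.57, 14.51 and 14.29 in SCA7, with a log2 difference of 0.05 (exact p = 0.371, adjusted 0.556). *Ano2* against *Cacna1f*, both of the terminal, was 1.53, 1.78, 2.20 and 1.24 in WT and 1.59, 1.87 and 1.88 in SCA7. Its groups overlapped (log2 difference 0.11, between -0.03 and 0.24 when each library was left out, exact p = 0.686, adjusted 0.823). Both genes fell, and their ratio gave no direction.

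**Figure D5:**
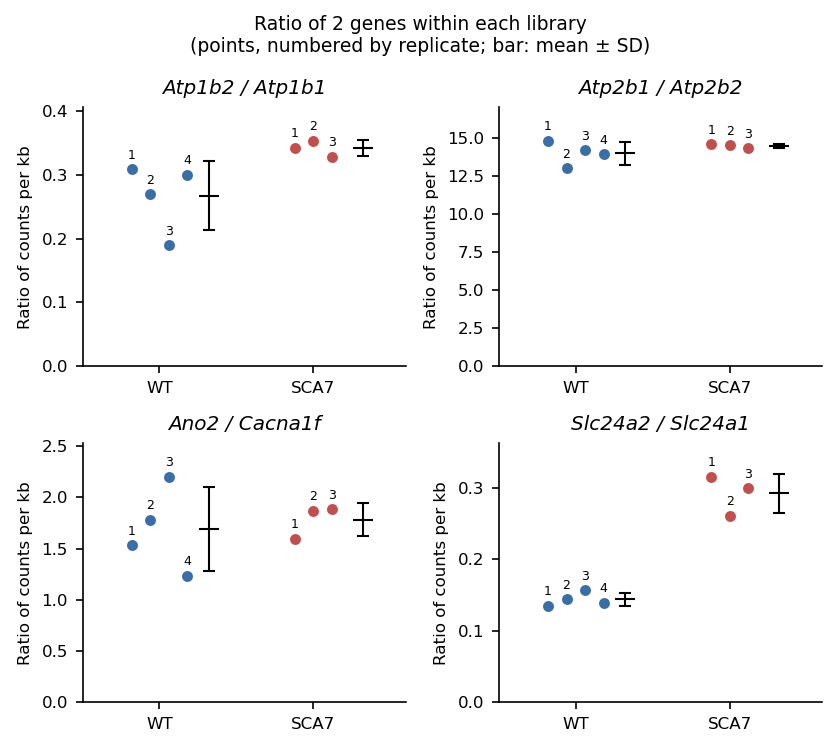
Ratio of counts per kb of 2 genes within each library (vertical axes, from 0) for 4 pairs, with points numbered by replicate and bars for mean ± SD in WT (n = 4) and SCA7 (n = 3). The *Slc24a2* to *Slc24a1* ratio lies from 0.135 to 0.157 in WT and from 0.261 to 0.315 in SCA7, while the groups overlap for *Ano2* to *Cacna1f* and *Atp2b1* to *Atp2b2*.

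The pattern of each gene over the 7 libraries was compared with those of 13265 protein-coding genes that had a mean of at least 1 CPM, as the root mean square difference of log2 CPM after each gene was centred on its own mean. This likeness uses the same libraries as the comparison of genotypes and is given as a description. Nearest to *Kcnv2* were *Heatr5a* (0.047), *Pcdhga1* (0.0498), a protocadherin gene that shares exons with its neighbours in a cluster so that its counts are uncertain, and *Myrip* (0.0708), which encodes a protein linking myosin VIIa to Rab27a on vesicles. Nearest to *Ano2* were *Uap1* (0.0461), *Dera* (0.0471) and *Actr3b* (0.0519). Nearest to *Slc24a2* were *St8sia3* (0.0245), a sialyltransferase gene of neurons, *Disp2* (0.0333) and *Myh10* (0.0378), a non-muscle myosin gene.

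Nearest to *Atp1b2* were *Tmem94* (0.0345), *Arid1a* (0.0358), a subunit gene of chromatin remodelling complexes, and *Dpysl3* (0.0376). Nearest to *Atp2b1* were *Chd8* (0.0268), a chromatin remodeller gene, *Fitm2* (0.0279) and *Atg2b* (0.0291). Among the 5 genes themselves the closest pairs were *Atp1b2* with *Atp2b1* (0.128), *Atp2b1* with *Slc24a2* (0.136) and *Atp1b2* with *Slc24a2* (0.145). *Kcnv2* and *Ano2*, the pair that fell, differed by 0.209, and all other pairs by 0.376 to 0.559. No pair among the 5 was as close as the nearest genes outside the set. Those genes were the nearest of 13265, so this comparison cannot tell whether the 5 genes are alike.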

How the data were processed

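Total RNA depleted of ribosomal RNA was made into stranded libraries by the authors and sequenced as single reads. Per the labels and the study's methods, the authors mapped reads to mm10 with TopHat2 2.0.14 and Bowtie2 2.1.0 and counted them per gene with HTSeq 0.6.1, and they deposited raw counts without normalization. The strand option of counting is not given in the sources used here.

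Genes were kept by filterByExpr of edgeR 4.0.16 (R 4.3.3), scaled by TMM and compared by the robust quasi-likelihood test without covariates on 4 WT and 3 SCA7 libraries, with Benjamini-Hochberg adjustment over the 20128 genes tested. Intervals and SEs are from that fit. Exact permutation tests on ratios used counts per kb of median transcript length with 0.5 counts added. RPK used DESeq2 1.42.0 size factors. Positions and lengths came from a GRCm38 annotation that held 52403 of the 52550 genes. Alternatives were other scalings, the DESeq2 Wald test, limma-voom (limma 3.58.1), 2 other filters, a replicate block, other thresholds, 5 counts added to ratios, the union of exons as length and each library left out in turn. The steps were tested on simulated data.

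Members, lists and tests were chosen with earlier results of these data known. Named are the 5 genes, the partner genes of the ratios and, in each family list, every gene that was downregulated or upregulated at 1 CPM or more on average, and the gene with the highest RPK in WT, and for each of the 5 the 3 genes most like it. Depth was between 56497675 and 96635832 counts per library, and the precision of each value is given by the spread between mice. Promoter windows came from RefSeq. Results of a few family genes, and the 2 ratios that use them, are not reported here, and the adjustment of ratio p-values covers all 6. The ChIP-seq data of the study were not used here.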

Additional observations from a re-analysis of the deposited data

How the results depend on the processing

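*Kcnv2*, *Ano2* and *Slc24a2* passed the test in 15 of 15 alternative fits and no direction of the 5 genes turned. With library totals, *Atp1b2* (log2 fold change 0.41, adjusted p = 0.0296, edgeR) and *Atp2b1* (0.29, adjusted p = 0.0325) passed, 2 of the 5 genes were upregulated, and 5 family genes were downregulated and 12 upregulated, through the shift of all genes given above. With the replicate block, *Atp1b2* passed at 0.31 (adjusted p = 0.00271, edgeR), 2 of the 5 genes were downregulated and 1 was upregulated. The sample titles carry further numbers that lie close together for mice of the same replicate number, without saying what they mark, and the data gave no clear pairing (correlations of deviations between libraries of the same number 0.00959, 0.197 and 0.0787). WT replicates 2 and 3 correlated best with the SCA7 library of their own number, while WT replicate 1 correlated best with SCA7 replicate 2. Over all genes the block moved the genes that passed from 5705 to 6879, and of the 9 calcium pump genes it gave 0 lower and 1 higher. Upper quartile factors gave 2 downregulated genes of 5, and dropping the FC threshold gave 2 downregulated and 1 upregulated. With each library left out in turn, 1 to 2 of the 5 genes were downregulated and 0 to 1 upregulated, because *Ano2* and *Slc24a2* lie at the FC thresholds, while the log2 fold changes of the 5 genes stayed on their side of the p threshold in 35 of 35 such fits. The DESeq2 Wald test called 1454 genes downregulated and 1555 upregulated. The union of exons as length moved the WT level of 4 genes, to 1866 RPK for *Atp1b2*, 1630 for *Atp2b1*, 4182 for *Ano2* and 370.1 for *Slc24a2*. With 4 and 3 mice, differences as small as that of *Atp2b1* could not be told from 0.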

Other observations

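A few family genes with a mean under 1 CPM were also called, and are named after their values were seen. *Kcng1*, a silent potassium channel subunit gene, had 3 to 8 counts in WT and 22 to 25 counts in SCA7 (log2 fold change 1.79, adjusted p = 0.00556, edgeR). *Ano7* had 10 to 20 counts in WT and 4 to 6 counts in SCA7 (-2.03, adjusted p = 0.00296), and *Atp2a1*, a calcium pump gene best known from fast muscle, had 43 to 108 counts in WT and 19 to 37 counts in SCA7 (-1.98, adjusted p = 0.00389). *Fxyd3* had 34 to 51 counts in WT and 80 to 124 counts in SCA7 (0.75, adjusted p = 0.0214) and did not pass without WT replicate 2, without SCA7 replicate 1 or without SCA7 replicate 2. *Atp2a1* did not pass with the replicate block.

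Of the family genes with a RefSeq promoter window, TAATCC occurred in 3 of 11 that passed as lower (*Cnga1*, *Cngb1* and *Slc24a4*), in 1 of 7 that passed as higher (*Kcng4*) and in 1 of 18 that did not pass (*Ano3*), against 8.14% of all 27025 genes with a window. TGCTGA occurred in 1 of 11, 1 of 7 and 3 of 18 of the same groups, against 21.7% of all genes. These counts are small and the lists were drawn up with earlier results known. A link between these letters and the changes in level was not tested.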
